A study of Arabidopsis thaliana with 27 samples.

Results

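The 6 snoRNA loci described here are AtsnoR84 (AT1G09333), AtsnoR90 (AT2G08580), AtsnoR89 (AT3G03585), AtsnoR96 (AT5G09130) and the copies snoR158a (AT2G08770) and snoR158b (AT2G08760) of Arabidopsis thaliana. They were picked by locus identifier, as snoRNA of the deposited count table known to be higher in the uvr8-6 mutant than in wild type, from 378 snoRNA loci and 2071 small RNA loci in all. Their level in uvr8-6 against wild type is therefore a description here and carries no test, while UV-B dose and the genes around them were not part of the choice. All 6 passed the filter on low counts, as did 1109 of the 2071 loci, of which 312 were other snoRNA.

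Small nucleolar RNAs (snoRNAs) guide chemical changes of other RNAs, above all of ribosomal RNA in the nucleolus. C/D snoRNAs guide ribose methylation and carry box C near their 5′ end and box D near their 3′ end, whereas H/ACA snoRNAs guide pseudouridylation and end in the letters ACA a few bases before the 3′ end. In plants many snoRNA genes lie in clusters or inside other transcripts and are cut out of longer precursors. Small RNA libraries read fragments of these RNAs as well as short full-length ones. UVR8 is the UV-B photoreceptor of Arabidopsis, and XPF is a subunit of the endonuclease that cuts damaged DNA in nucleotide excision repair.

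The 27 libraries came from etiolated hypocotyls of 3 genotypes, wild type Columbia-0 and the mutants xpf-3 and uvr8-6, each left in the dark or given 3000 or 30000 µmol per square metre of UV-B (about 5 or 45 min of exposure), with 3 libraries per group. Every group was sown on MS medium at 0.5x strength that held the gibberellin GA4 at 100 µM, and kept in the dark for 2.5 days before and again after the exposure. Excision of the hypocotyls is placed 6 h after UV-B by the labels, while the series title speaks of 2 days. The labels do not say whether the 3 libraries of a group are separate cultures, so the p-values speak of the spread among these libraries alone, which can be technical. XPF and UVR8 transcripts were not measured, so the genotype labels were not checked, and the labels do not describe the lesions of the alleles. In whole hypocotyls, fewer cells of a type and less RNA per cell cannot be told apart.

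The sequences of the 4 loci that end in ACA are shown first, since this end is what they share and the choice of loci did not use it. They are RefSeq sequences of TAIR10.1, written 5′ to 3′ as DNA in lower case with the ACA in capitals. For AtsnoR89 the last 30 bases are shown.
AtsnoR84: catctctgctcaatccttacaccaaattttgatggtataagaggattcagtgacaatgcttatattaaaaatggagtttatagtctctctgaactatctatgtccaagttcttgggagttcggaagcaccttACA
AtsnoR90: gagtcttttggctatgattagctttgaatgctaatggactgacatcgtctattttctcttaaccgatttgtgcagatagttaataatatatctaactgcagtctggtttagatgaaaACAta
AtsnoR89: tgggcttatgaactcagtagctcctACAtt
AtsnoR96: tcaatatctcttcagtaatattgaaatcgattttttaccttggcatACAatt
The ACA is the end of AtsnoR84 itself, is followed by 2 bases in AtsnoR90 and AtsnoR89, and by 3 bases in AtsnoR96. Search of the last 6 bases of the given strand of all 246 snoRNA with AT identifiers, all of which were matched to TAIR10.1 by locus tag, found ACA in 60 (24.4%). The search for TGATGA in the first 20 bases together with CTGA in the last 20, the core letters of boxes C and D, hit 108 (43.9%), and 5 held both ends. None of the 6 loci held the TGATGA and CTGA pair. These letters were chosen after the sequences were seen, and a match is a description, not a mapped box.

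The snoR158 copies hold neither pair of ends, and they are shown because they are near copies of each other, the longest of the set and, in snoR158a, the one with the most counts. Capitals mark the longest stretch of 35 bases that is identical in both. For snoR158a bases 94 to 226 are shown.
snoR158b: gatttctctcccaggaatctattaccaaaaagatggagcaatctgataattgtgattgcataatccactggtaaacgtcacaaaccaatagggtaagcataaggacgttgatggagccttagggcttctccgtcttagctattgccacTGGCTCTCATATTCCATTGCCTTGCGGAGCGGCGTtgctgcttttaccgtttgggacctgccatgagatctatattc
snoR158a: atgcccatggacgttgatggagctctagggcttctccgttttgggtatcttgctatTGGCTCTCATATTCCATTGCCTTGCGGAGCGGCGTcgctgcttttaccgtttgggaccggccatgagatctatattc
Aligned over their whole length the copies matched in 205 of 227 columns (90.3%). Each of the 6 sequences occurs once in the genome as an exact match, but the deposited labels do not say how reads that fit both copies were counted, so reads from the shared stretches may have been split between them. No other pair among the 6 loci matched in more than 53.8% of columns, and none of those shared a run over 9 bases.

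The loci lie on 4 chromosomes. The deposited table gives no coordinates or build, so positions here are those of the TAIR10.1 annotation. AtsnoR84 (chr1:27348657-27348791, plus strand, 135 bases) lies wholly inside a coding exon of the protein-coding gene AT1G72645 on the same strand. AtsnoR90 (chr2:14163648-14163769, plus strand, 122 bases) lies between genes, 55 bases from its related snoRNA AtsnoR90b (AT2G08585). AtsnoR89 (chr3:6127895-6127971, minus strand, 77 bases) lies opposite a non-coding part of an exon of AT3G17890, a protein-coding gene of the plus strand. AtsnoR96 (chr5:25290992-25291043, minus strand, 52 bases) lies within an exon of the long non-coding RNA AT5G09125 on the same strand. The snoR158a locus (chr2:15029957-15030182, minus strand, 226 bases) lies within an exon of the protein-coding gene AT2G35750, with 133 bases in its coding part, and snoR158b (chr2:15027868-15028092, minus strand, 225 bases) shares 122 bases with the transcribed pseudogene AT2G35743. The sources do not say whether counting used strand, so where a locus overlaps such a transcript, their reads cannot be told apart. AtsnoR90 overlaps no other annotated gene.

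Library totals ran from 681228 to 1970871 counts, of which rRNA fragments took 69.8% to 82.5% and snoRNA 2.06% to 6.47%. The snoRNA share was 4.84% ± 0.908 (SD, n = 9) in uvr8-6 and 3.96% ± 0.836 (SD, n = 9) in wild type, a difference of 0.884 percentage points (exact two-sided permutation test within doses, p = 0.043). This share includes the 6 loci, which were chosen as higher in uvr8-6, and without them the difference was 0.753 percentage points and did not pass (same exact test, p = 0.0728). With the 6 loci included, leaving out 1 library at a time gave 0.677 to 1.09 percentage points. In 10 of these 18 cases p was over 0.05, so the difference did not pass there. The share of rRNA was also higher in uvr8-6, by 4.81 percentage points (same exact test, p = 0.00025, the smallest these permutations can give). Of the counts outside rRNA, snoRNA took 25.2% ± 5.67 (SD, n = 9) in uvr8-6 and 16.5% ± 3.65 in wild type, a difference of 8.69 percentage points with the 6 loci included (same exact test, p = 0.00075). This share was not computed without the 6 loci, so its p-value is not free of their choice. Its base, the counts outside rRNA, was also a smaller part of the total in uvr8-6, where rRNA took 80.6% against 75.8% in wild type. The 6 loci made up 3.18% to 6.72% of snoRNA counts in the uvr8-6 libraries, 1.70% to 3.16% in wild type and 2.03% to 2.79% in xpf-3. The part of these class shares in the levels below was not tested, and those levels are counts per library size (CPM), with library sizes scaled by edgeR's TMM factors for composition.

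In uvr8-6 all 6 loci stood above wild type and xpf-3 in the dark and at both doses, and the mean level was 2.51 to 4.43 times that of wild type. These values include the contrast by which the loci were known, and they are given with no test.

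**Figure D1:**
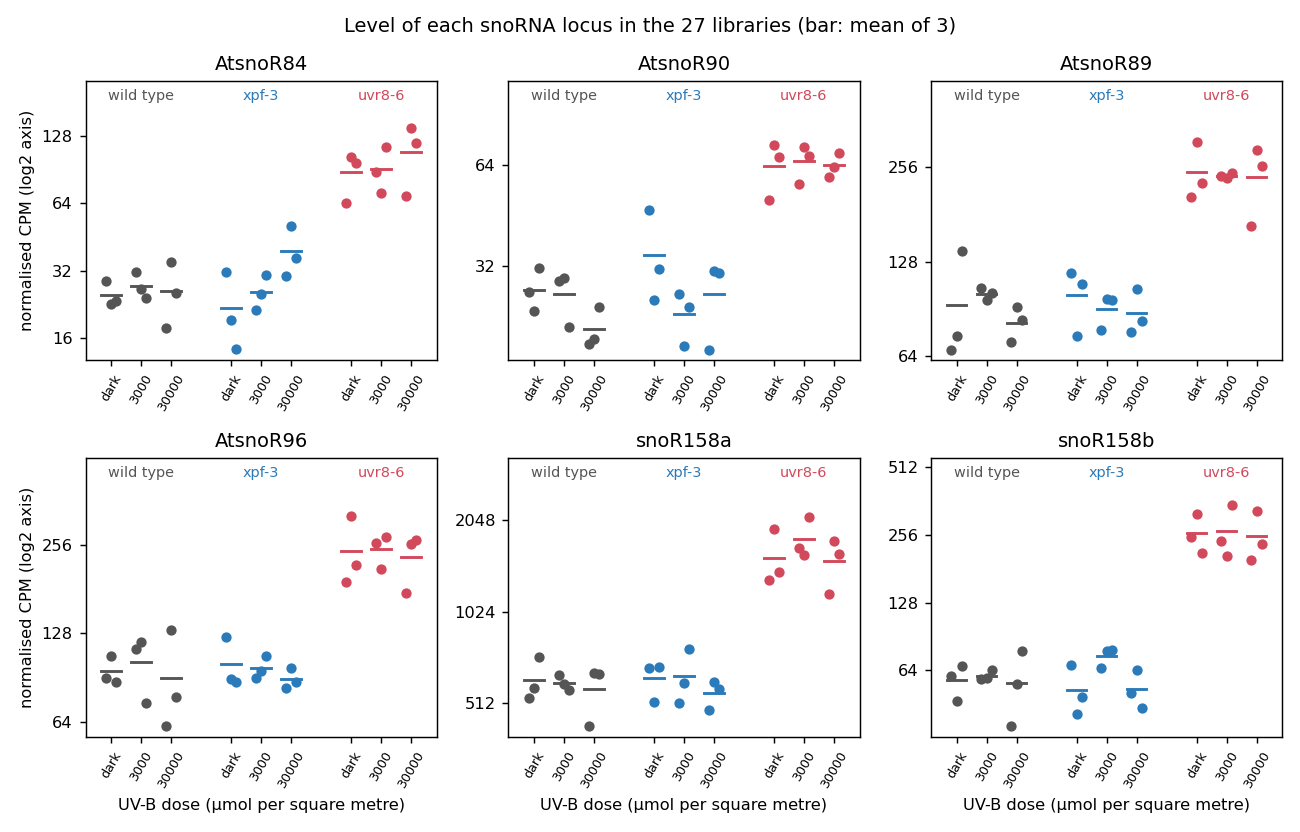
Normalised CPM (log2 axis) of each snoRNA locus in the 27 libraries, by UV-B dose within wild type (grey), xpf-3 (blue) and uvr8-6 (red). Points are libraries and bars are means of 3; in each panel the 9 red points lie above all 18 others, and the narrowest gap is in AtsnoR90, where the lowest uvr8-6 library is 1.08 times the highest of the others.

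AtsnoR84, one of the loci with an ACA end and few counts, had 28.8, 22.6 and 23.3 CPM in the 3 dark wild-type libraries, 31.5, 26.3 and 24.1 after 3000 µmol per square metre and 17.7, 34.9 and 25.5 after 30000. The corresponding xpf-3 libraries had 31.6, 19.2 and 14.2 CPM, then 21.3, 25.02 and 30.7, then 30.2, 50.6 and 36.5. Those of uvr8-6 had 64.0, 104 and 96.8 CPM in the dark, 88.2, 71.6 and 115 after 3000 and 69.1, 139 and 119 after 30000. The lowest uvr8-6 library stood above the highest of the other 18, the xpf-3 library with 50.6 CPM. Over 9 libraries per genotype the mean was 26.1 ± 5.10 CPM (SD) in wild type, 28.8 ± 10.7 in xpf-3 and 96.3 ± 25.6 in uvr8-6, and the raw counts behind them ran from 14 to 155 per library. The fitted log2 difference of uvr8-6 from wild type was 1.87 ± 0.19 (SE), with 1.82 in the dark, 1.74 at 3000 and 2.06 at 30000.

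AtsnoR90, the other ACA snoRNA with few counts (18 to 110 per library), had 26.7, 23.5 and 31.5 CPM in dark wild type, 28.8, 29.5 and 21.1 after the lower dose and 18.7, 19.4 and 24.1 after the higher. In xpf-3 it had 47.1, 25.3 and 31.5 CPM in the dark, 26.4, 18.5 and 24.2 after the lower dose and 18, 30.9 and 30.5 after the higher. The uvr8-6 libraries held 50.6, 73.5 and 67.8 CPM, then 56.4, 72.9 and 68.1, then 58.9, 63.5 and 69.9. A single dark xpf-3 library, at 47.1 CPM, came close to the uvr8-6 range, and no library reached it. The log2 difference of uvr8-6 from wild type was 1.39 ± 0.15, the ratio of means was 2.60, and by dose the difference was 1.23, 1.31 and 1.62 from dark to the higher dose.

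AtsnoR89 ran from 67.1 CPM (median 91.5) to 138 in the 9 wild-type libraries, from 74.1 (median 96.7) to 118 in xpf-3 and from 167 (median 239) to 308 in uvr8-6. The highest wild-type value was 1 dark library that stood well above the other dark ones, at 67.1 and 74.2 CPM. AtsnoR96, the shortest of the set, ran from 62.0 CPM (median 90.4) to 131 in wild type, from 83.7 (median 90.3) to 124 in xpf-3 and from 175 (median 258) to 321 in uvr8-6. For both, the 9 uvr8-6 libraries stood apart from all others, and the log2 difference from wild type was 1.40 ± 0.15 for AtsnoR89 and 1.33 ± 0.15 for AtsnoR96. By dose the difference was 1.41, 1.25 and 1.54 for AtsnoR89 and 1.35, 1.27 and 1.36 for AtsnoR96.

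The snoR158a copy had the most counts, 437 to 2377 per library. Dark wild type had 531, 574 and 727 CPM, the lower dose 635, 591 and 565, and the higher dose 430.1, 643 and 639. In xpf-3 the values were 668, 516 and 672 CPM in the dark, 512, 596 and 773 after the lower dose and 488, 602 and 569 after the higher. In uvr8-6 they were 1303, 1914 and 1377 CPM, then 1652, 1575 and 2092, then 1169, 1746 and 1587. The uvr8-6 libraries did not overlap with the others, the lowest being 1.51 times the highest xpf-3 library. The log2 difference of uvr8-6 from wild type was 1.43 ± 0.12, and 1.33, 1.57 and 1.40 by dose.

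The snoR158b copy had 60.3, 47.0 and 67.2 CPM in dark wild type, 58.4, 59.1 and 64.3 after the lower dose and 36.4, 55.5 and 77.8 after the higher. In xpf-3 it had 67.3, 41.0 and 48.8 CPM, then 65.3, 78.0 and 79.1, then 51.1, 64.4 and 43.7. In uvr8-6 it had 251, 315 and 213 CPM, then 241, 206 and 346, then 198, 325 and 233. Here the genotypes were farthest apart, with the lowest uvr8-6 library at 2.51 times the highest of the other 18. The log2 difference was 2.15 ± 0.16, the highest of the 6 loci, and was 2.16, 2.12 and 2.16 by dose.

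In all 6 loci the 9 uvr8-6 libraries lay above the 18 others, which was so of 2.07% of all loci tested and of 14 of the 312 other snoRNA. Against wild type alone the share of all loci was 3.61%, against xpf-3 alone 2.8%, and 27 of the 312 other snoRNA lay above wild type. With library sizes taken from snoRNA counts only, 5 of the 6 loci stood clear of the other 18 libraries, and in AtsnoR89 the lowest uvr8-6 library was 0.938 times the highest other. That scaling lowered the median of all loci by 0.17 on the log2 scale and gave differences of uvr8-6 from wild type of 1.16 to 1.97, so all 6 loci kept their direction under it. In edgeR's test over all loci 30.5% were called different between uvr8-6 and wild type (adjusted p under 0.05) and 14.3% higher in uvr8-6, among them the 6 loci by their choice.

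No locus of the 6 had all xpf-3 libraries above wild type, nor did any of the 1109 loci (0%). The log2 difference of xpf-3 from wild type lay between −0.00 (AtsnoR96) and 0.16 ± 0.15 (AtsnoR90), with 95% intervals that reached from −0.32 to 0.49. Over all loci edgeR called 0 at an adjusted p under 0.05 in this comparison, with 87 at an unadjusted p under 0.05, and DESeq2 called 0 snoRNA loci. The difference of uvr8-6 from xpf-3 was 1.22 to 2.13 over the 6 loci. Since the genotype comparisons share libraries, these values are set side by side and not counted as separate evidence.

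Corrected for length, the order of levels differed from that of the counts. Mean wild-type levels per 100 bases were 262 CPM for snoR158a, 185 for AtsnoR96, 120 for AtsnoR89, 26.0 for snoR158b, 20.4 for AtsnoR90 and 19.3 for AtsnoR84. In uvr8-6 they were 709 CPM per 100 bases for snoR158a, 464 for AtsnoR96, 314 for AtsnoR89, 115 for snoR158b, 71.3 for AtsnoR84 and 53.0 for AtsnoR90. AtsnoR90 and AtsnoR84 thus changed places. In both genotypes the range of each locus over its 9 libraries overlapped on this scale with that of the next in order, except for AtsnoR89 and snoR158b. Small RNA reads can come from a part of a locus only, which a level per length does not show.

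The highest and lowest libraries within a genotype were often shared among loci. Among wild-type libraries replicate 1 at 30000 µmol per square metre was the lowest for 5 of the 6 loci, and among uvr8-6 libraries replicate 1 at that dose was the lowest for 4. These libraries held 827130 and 1970871 counts, below and above the mean total of 1238564, and a snoRNA share of 4.59% and 4.01%. Leaving out any 1 of the 18 libraries left the log2 difference of uvr8-6 from wild type between 1.27 and 1.47 for AtsnoR96, the lowest of the 6 loci, and between 2.09 and 2.28 for snoR158b, the highest.

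The effect of UV-B on these loci was not part of their choice and was tested. After 3000 µmol per square metre, averaged over the genotypes, the log2 change from dark was 0.14 ± 0.19 for AtsnoR84, −0.19 ± 0.15 for AtsnoR90, 0.20 ± 0.16 for snoR158b, 0.07 ± 0.12 for snoR158a, −0.02 ± 0.15 for AtsnoR89 and 0.03 ± 0.15 for AtsnoR96. By edgeR's quasi-likelihood test 0 of 6 passed an adjusted p of 0.05, against 0.902% of all loci, and 0 had an unadjusted p under 0.05. DESeq2 also called 0 of the 6.

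After 30000 µmol per square metre the changes were 0.41 ± 0.19 for AtsnoR84, −0.26 ± 0.15 for AtsnoR90, −0.02 ± 0.16 for snoR158b, −0.10 ± 0.12 for snoR158a, −0.14 ± 0.15 for AtsnoR89 and −0.10 ± 0.15 for AtsnoR96. Of the 6, 0 passed edgeR's test at an adjusted p of 0.05, while 16.9% of all loci did, and DESeq2 called 0. AtsnoR84 alone had an unadjusted p under 0.05 (edgeR adjusted p = 0.147, 95% interval 0.01 to 0.80). With snoRNA library sizes, which lowered the median of all loci in this comparison by 0.23, AtsnoR90 passed, with a change of −0.47 (edgeR adjusted p = 0.0219), and AtsnoR84 stood at 0.18 (edgeR adjusted p = 0.516). Among the 312 other snoRNA 52 rose and 5 fell at this dose, with a median change of 0.24, but with snoRNA library sizes 12 rose and 18 fell, with a median of 0.02. Under TMM scaling, which gave the 0.24 for the other snoRNA, the median over the 6 loci was −0.10. Their median with snoRNA library sizes is not given here. All 95% intervals of the 6 loci at both doses lay between −0.57 and 0.80, and changes within these bounds are not shown to be absent.

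**Figure D2:**
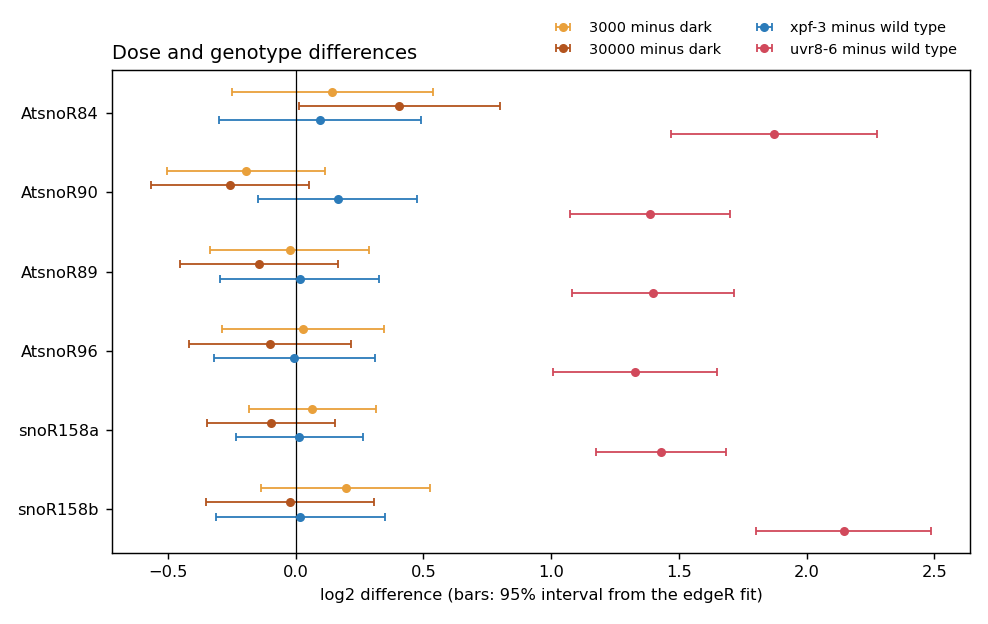
Log2 differences of the 6 snoRNA loci with 95% intervals from the edgeR fit, for the UV-B doses (µmol per square metre) against dark over the 3 genotypes (orange, brown) and for xpf-3 (blue) and uvr8-6 (red) against wild type over the 3 treatments. The dose differences lie between −0.26 and 0.41 and those of xpf-3 between −0.00 and 0.16, while those of uvr8-6, by which the loci were chosen, lie between 1.33 and 2.15.

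Within single genotypes edgeR called none of the 6 loci at either dose. In wild type 0% of loci were called at 3000 µmol per square metre (67 of 1109 at an unadjusted p under 0.05) and 1.89% at 30000, in xpf-3 0.541% and 4.87%, and in uvr8-6 0% (56 of 1109 at an unadjusted p under 0.05) and 0.541%. DESeq2 called 0 of the 6 in each of these 6 comparisons. AtsnoR84 in xpf-3 went from 21.7 ± 8.97 CPM in the dark to 39.1 ± 10.5 (SD, n = 3) at the higher dose, with a log2 change of 0.84 ± 0.33 (edgeR adjusted p = 0.148), and the libraries of these groups overlapped. Leaving out 1 library gave 0.72 to 1.29, the highest without dark replicate 1. AtsnoR90 in xpf-3 went from 34.6 ± 11.2 CPM to 23.0 ± 4.11 (SD, n = 3) at the lower dose, a log2 change of −0.59 ± 0.26 (edgeR adjusted p = 0.338), and here too the groups overlapped. Leaving out 1 library gave −0.65 to −0.27, the weakest without that same dark replicate 1. No other of the 6 loci had an unadjusted p under 0.05 within a genotype.

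The response to UV-B was also compared between genotypes. The response of uvr8-6 minus that of wild type was −0.16 to 0.24 on the log2 scale at 3000 µmol per square metre and −0.00 to 0.40 at 30000, and the 95% intervals reached from −1.03 to 1.21. For xpf-3 minus wild type it was −0.55 to 0.44 and −0.09 to 0.78, with intervals from −1.31 to 1.75. In these 4 comparisons edgeR called 0 of the 6 loci and 0% of all loci (52 to 62 of 1109 had an unadjusted p under 0.05), 0 of the 6 had an unadjusted p under 0.05, and DESeq2 called 0 of the 6. The intervals of snoR158a stayed within a 2-fold difference in all 4 comparisons, and those of AtsnoR84 reached past it in each. Differences within these intervals are not shown to be absent.

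The snoR158 copies and 5 further snoRNA loci lie on the minus strand of chr2:15027589-15030182. snoR149 (AT2G08765), which lies between the copies, was at 151 ± 26.8 CPM (SD, n = 9) in wild type and 213 ± 33.1 in uvr8-6, a log2 difference of 0.50 ± 0.11 (edgeR adjusted p = 0.00217). AT2G35742, 199 bases from snoR158b with At39BYb (AT2G08755) between them, was at 11.7 ± 2.96 and 19.3 ± 5.29 CPM (SD, n = 9), a log2 difference of 0.72 ± 0.23 (edgeR adjusted p = 0.0202). Both were thus higher in uvr8-6, with smaller fitted differences than those of the copies. The copies were chosen as higher in this same comparison and the neighbours were not, so that order is not independent of the choice. AT2G35744, 166 bases from snoR158a, was at 289 ± 52.5 and 278 ± 43.9 CPM (SD, n = 9), with a difference of −0.06 ± 0.11 (edgeR adjusted p = 0.777). AT2G35747, which lies between AT2G35744 and snoR158a, differed by 0.29 ± 0.18 (edgeR adjusted p = 0.239), and At39BYb, with 94 counts in all libraries, was below the count filter. Beside these neighbours, edgeR called 83 of the 312 other snoRNA and 14.3% of all loci higher in uvr8-6. The neighbour values are under TMM scaling, and snoRNA library sizes lowered the median of all loci in this comparison by 0.17.

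AT2G35742 and AT2G35744 are also copies of each other, identical in 72 of 80 aligned columns, and they stand here because they belong to the snoR158 cluster and 1 of them passed the test. They share a run of 24 bases, so reads may have been split between them, and their levels may not be separate. Capitals mark TGATGA and CTGA, the letters searched for boxes C and D.
AT2G35742: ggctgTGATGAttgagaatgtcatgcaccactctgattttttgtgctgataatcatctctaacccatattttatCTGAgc
AT2G35744: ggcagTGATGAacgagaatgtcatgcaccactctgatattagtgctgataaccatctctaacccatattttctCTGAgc
Whether the log2 differences of the cluster's loci differ from each other was not tested.

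**Figure D3:**
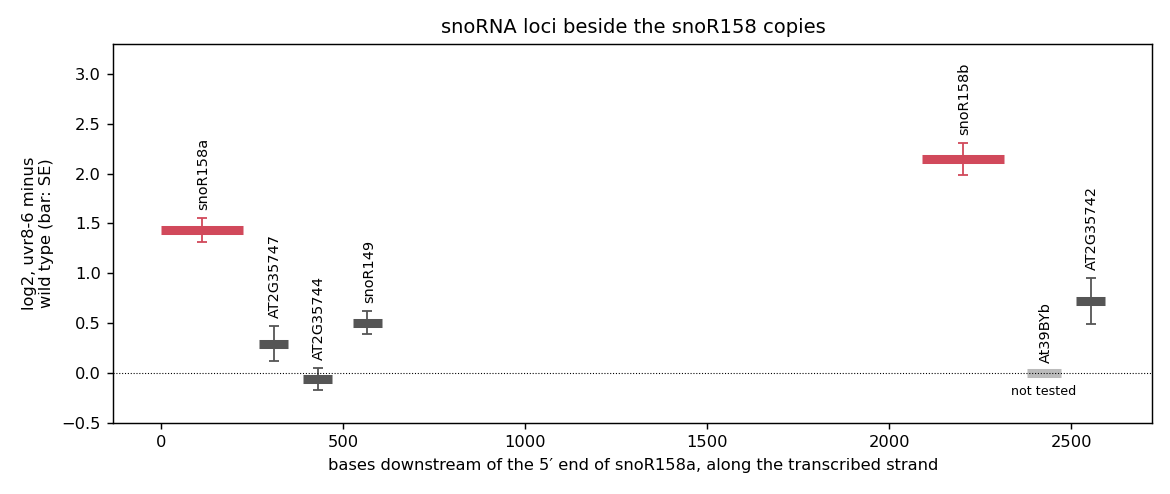
Log2 difference of uvr8-6 from wild type (mean of the 3 treatments, bars are SE) for the 7 snoRNA loci of the snoR158 cluster, placed by distance in bases from the 5′ end of snoR158a along the transcribed strand. The snoR158 copies (red), chosen as higher in this comparison, stand at 1.43 and 2.15. The 4 tested neighbours (grey) lie between −0.06 and 0.72, and At39BYb is drawn at 0 as not tested.

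At the other locus with a close relative, AtsnoR90b was at 7.15 ± 2.26 CPM (SD, n = 9) in wild type and 12.2 ± 5.58 in uvr8-6, and its log2 difference of 0.77 ± 0.31 did not pass the test (edgeR adjusted p = 0.0643). It matches AtsnoR90 in 69.1% of aligned columns and shares a run of 37 bases, so reads may have been split between these too. It is shown for that likeness, with its ACA in capitals.
AtsnoR90b: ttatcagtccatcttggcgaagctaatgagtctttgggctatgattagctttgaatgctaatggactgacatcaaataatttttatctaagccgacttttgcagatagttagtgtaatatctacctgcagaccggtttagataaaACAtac

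The balance of the snoR158 copies was read from the raw counts of each library. In wild type snoR158b made up 7.57% to 10.9% (median 8.46%) of the counts of both copies, in xpf-3 6.77% to 11.6% (median 9.28%) and in uvr8-6 11.6% to 16.2% (median 14.1%). All uvr8-6 libraries lay above all wild-type ones, whereas the lowest uvr8-6 library (11.57%, exact 95% interval 10.4% to 12.8%) and the highest xpf-3 library (11.58%, exact 95% interval 9.78% to 13.6%) met. By dose the uvr8-6 mean was 14.6% ± 1.43, 12.8% ± 1.32 and 14.3% ± 1.46 (SD, n = 3) from dark to the higher dose. Intervals cover counting error only, and this share comes from the contrast that chose the loci, so it carries no test.

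**Figure D4:**
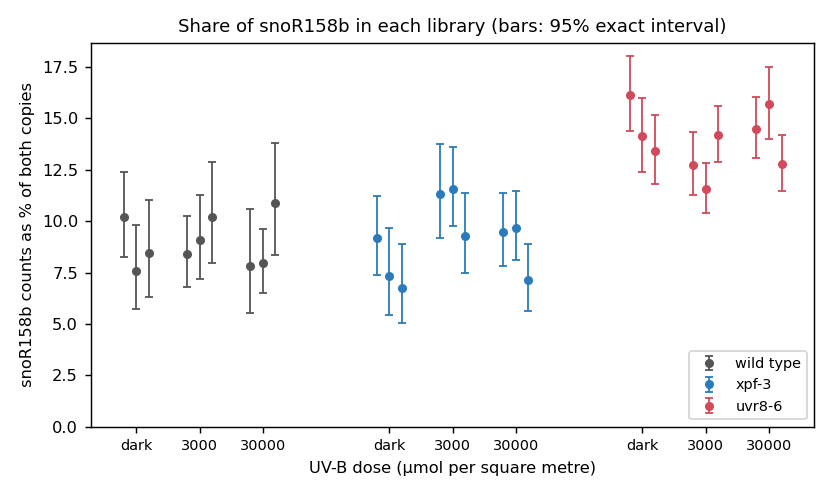
Counts of snoR158b as a percentage of the counts of both snoR158 copies in each library, by UV-B dose within wild type (grey), xpf-3 (blue) and uvr8-6 (red), with exact 95% intervals for counting error. Wild-type and xpf-3 libraries lie between 6.77% and 11.6% and uvr8-6 libraries between 11.6% and 16.2%.

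Set beside the other snoRNA, the 6 loci had the highest F statistics of snoRNA with AT identifiers for uvr8-6 against wild type, which describes how they were chosen. The seventh and eighth by that order were AtsnoR28-1a (AT5G02675), lower in uvr8-6 by −1.06 ± 0.13 on the log2 scale, and AtsnoR88-2 (AT3G07715), higher by 0.94 ± 0.12. By size of difference several snoRNA outside the set were as high or higher among those with a mean of at least 10 CPM. AtU49-1 (AT2G06855) differed by 2.25 ± 0.61, snoR77Y by 2.17 ± 0.39, AtU65-1 (AT2G06865) by 2.00 ± 0.46, snoR121 by 2.00 ± 0.24 and U3D (AT5G54075), a form of the U3 snoRNA that acts in pre-rRNA cleavage, by 1.84 ± 0.33. Mean wild-type levels were low for AtU49-1 (4.17 CPM), snoR77Y (11.0) and AtU65-1 (7.73), and were 1536 CPM for snoR121 and 44.0 for U3D. Of the 312 other snoRNA 83 were called higher and 49 lower in uvr8-6 (edgeR, adjusted p under 0.05), with a median difference of 0.06. With snoRNA library sizes 64 were higher and 65 lower, and the median was −0.10.

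Grouped by the end letters, the 49 tested ACA snoRNA outside the set had a median log2 difference of 0.51 between uvr8-6 and wild type, with 24 called higher and 1 lower by edgeR. The 97 with TGATGA and CTGA had a median of −0.04, with 18 higher and 21 lower, and the 67 others with neither ending had 0.13, with 21 higher and 11 lower. The 3 loci with both ends are counted in the ACA group and in the TGATGA and CTGA group. The 210 matched snoRNA outside the set together had a median of 0.10, with 61 higher and 33 lower. Scaled by snoRNA counts the medians were 0.36 for ACA ends, −0.21 for TGATGA and CTGA and −0.03 for neither, so that of the last group changed sign. The counts were then 20 higher and 2 lower, 12 higher and 26 lower, and 17 higher and 17 lower. The difference between these groups was not tested, and members of 1 cluster or family are not independent of each other.

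**Figure D5:**
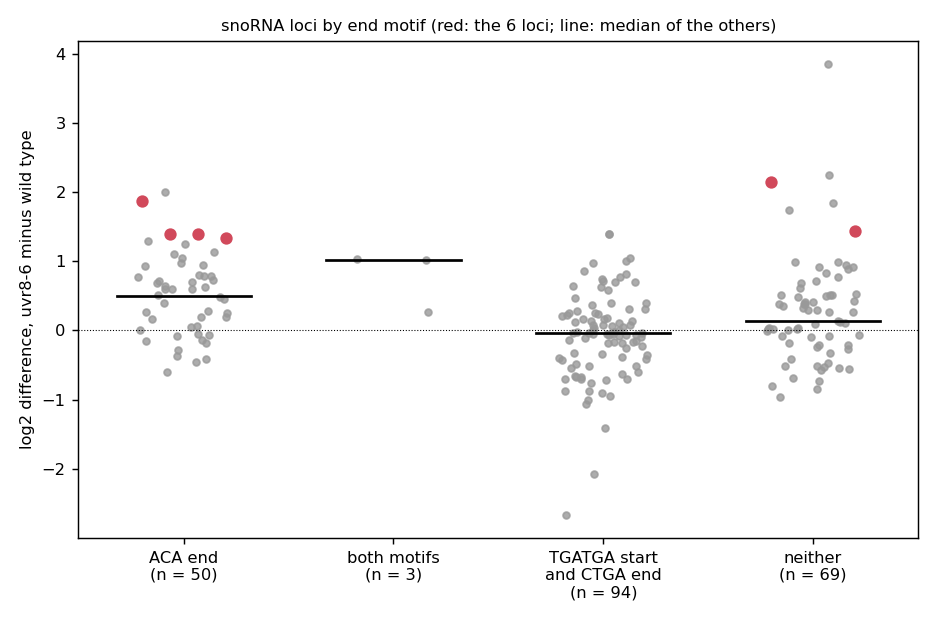
Log2 difference of uvr8-6 from wild type (mean of the 3 treatments) for the tested snoRNA matched to TAIR10.1, grouped by end letters, with the 3 loci that hold both pairs shown on their own. Red points are the 6 loci, grey points the other snoRNA and black lines the medians of the grey points: 0.50 for ACA alone (46 loci), 1.01 for both (3), −0.05 for TGATGA with CTGA alone (94) and 0.13 for neither (67).

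Across the 27 libraries the loci whose log2 CPM most resembled that of the 6 were all annotated as snoRNA, among tested loci with a mean of at least 10 CPM. AtsnoR88-2 was among the 3 closest loci outside the set for snoR158a (Spearman's rho 0.936), AtsnoR89 (0.926), AtsnoR90 (0.883) and AtsnoR96 (0.858). snoR86 was closest to snoR158a (0.943) and to AtsnoR96 (0.863), AtsnoR23-3 (AT4G06310) and snoZ152 equally to snoR158b (0.874) and AT4G03295 to AtsnoR84 (0.858). Within the set snoR158a and AtsnoR89 were most alike (0.926), ahead of the snoR158 copies with each other (0.853). The 27 points share libraries, scaling and the genotype difference by which the loci were chosen, so these values only describe.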

How the data were processed

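Small RNA of etiolated hypocotyls was measured in 27 libraries of 9 groups, 3 per group, formed from the genotype and treatment labels. Libraries were made with the Clontech SMARter smRNA kit, per the labels' protocols. Per the submitters' processing notes, FastQC and cutadapt were used, with no version stated. Not given in the sources used here are the genome build, the aligner, the counter and how it used strand and reads with more than 1 match. The authors deposited whole-number counts per annotated locus, and these were used as deposited. In all, 189 further columns of deposited tables with values per library were not used.

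Counts of the 2071 loci were filtered (edgeR filterByExpr, minimum count 10, leaving 1109), scaled by TMM and fitted in edgeR 4.0.16 (R 4.3.3, limma 3.58.1) by quasi-likelihood over 9 groups with 18 residual degrees of freedom, and p-values were adjusted over the 1109 loci by Benjamini-Hochberg. Standard errors and 95% intervals come from that fit, and log2 CPM for likeness used a prior count of 2. The scripts were tested on simulated counts. Names and sequences were taken from RefSeq TAIR10.1 by locus tag. Depth was 681228 to 1970871 counts per library, and pairs of replicates differed by a chi-square per degree of freedom of 24.2 to 131 (27 pairs), far over counting error.

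The 6 loci, the lists and the tests were chosen with earlier results of these data known. Named besides them were their annotated neighbours, the 3 loci closest in pattern to each, and the 5 other snoRNA with the largest difference of uvr8-6 from wild type among loci with a mean of at least 10 CPM. The next loci by F statistic, the end letters and the values by end letters were chosen after the data were seen. Alternatives were RLE size factors, DESeq2 1.42.0, no filter, library sizes from snoRNA, only the groups compared, a replicate block and leaving out each library.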

Additional observations from a re-analysis of the deposited data

How the results depend on the processing

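Over RLE size factors, DESeq2, no filter, a replicate block, snoRNA library sizes and only the groups compared, the difference of uvr8-6 from wild type kept its direction in all 36 values of the 6 loci (1.16 to 2.18), and leaving out any 1 library moved none by more than the spread between replicates. The loci were chosen by this difference in the same counts, so its kept direction is no separate evidence for it. For UV-B, snoRNA library sizes turned the change at 3000 µmol per square metre to −0.077 for snoR158a and −0.11 for AtsnoR96, and raised the count called at 30000 to 1 (AtsnoR90). That scaling lowered the median of all loci by 0.15 and 0.23. Only the groups compared gave 0.017 for snoR158b at 30000. The cause of these changes was not tested. Without 1 library the change at 3000 ran from −0.048 to 0.16 for AtsnoR89, and at 30000 from −0.070 to 0.10 for snoR158b, −0.11 to 0.017 for snoR158a, −0.17 to 0.039 for AtsnoR89 and −0.18 to 0.034 for AtsnoR96, with no call in any case. The class share difference ran from 0.677 to 1.09 percentage points without 1 library, and was 0.753 without the 6 loci (exact permutation test, p = 0.0728), an alternative chosen after seeing the data. With the replicate block 0 of the 6 loci were called at either dose, as without it, and it changed no other dose call of the 6. Calls of single loci outside the set were not compared under it. The labels do not say that replicate numbers pair libraries, and 9 of 108 pairs with the same number had deviations correlated over 0.1 (median 0.03), so the block was kept as an alternative. As a hint from the data, 16 of 27 libraries correlated best with their own number, and pairs with other numbers had a median of −0.006. The main fit does not model such a pairing. Counts fell as low as 14 in a library for AtsnoR84 and 18 for AtsnoR90.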

Other observations

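At 30000 µmol per square metre, averaged over the genotypes, the medians of the snoRNA grouped by end letters stood in another order than between genotypes. Of the 97 with TGATGA and CTGA 23 rose and 1 fell by edgeR (adjusted p under 0.05), with a median log2 change of 0.33, and of the 67 others with neither ending 13 rose and 2 fell, with a median of 0.32. Of the 49 ACA snoRNA outside the 6 loci 1 rose and 0 fell, with a median of 0.03. All 210 matched snoRNA outside the 6 loci together had a median of 0.24, with 37 that rose and 3 that fell. Over all loci 16.9% were called in either direction. The 3 loci with both ends are counted in the ACA group and in the TGATGA and CTGA group. Scaled by snoRNA counts, 5 rose and 3 fell in the first group (median 0.12), 3 rose and 4 fell in the second (median 0.09), and 0 rose and 3 fell among ACA snoRNA (median −0.18, so its sign turned). The difference between the groups was not tested, and the letters were chosen after the data were seen.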
